A study of Rattus norvegicus with 24 samples.

Results

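The mRNAs of the cytosolic ribosomal proteins were measured in whole blood of rats fed oat beta-glucan with or without intestinal inflammation. Genes were taken by name, as every gene on the array whose symbol starts with Rpl, Rps or Rplp followed by a number, apart from the Rps6k kinases. This gave 97 of the 25885 gene names on the array, read by 166 of 30367 probes, and the brightest probe in the Cy3 channel stood for each gene. By their standard names, 30 genes encode core proteins of the small subunit, 43 those of the large subunit and 3 the P-stalk, 8 are paralogs of core proteins, and 12 carry other "l" names given to copies of these genes. The last one, Rps19bp1, encodes a protein that binds Rps19 and is no ribosomal protein.

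The animals were male Sprague-Dawley rats, 8 weeks old at the start, fed for 6 weeks on a semi-synthetic diet. The diet held no beta-glucan (G0), high-molecular-weight oat beta-glucan (G1) or low-molecular-weight oat beta-glucan (G2). Each diet was given to rats injected intravenously with saline and no LPS (C), and to rats injected intravenously with LPS at 10 mg/kg to induce enteritis (LPS). By the study's methods, the injections of saline and of LPS were each repeated after some days. The 6 groups, C-G0, LPS-G0, C-G1, LPS-G1, C-G2 and LPS-G2, had 4 arrays each, each array carrying blood RNA of that group together with a common reference RNA. Blood was drawn by cardiac puncture, so all blood cells were read together, and fewer cells of a type and less RNA per cell cannot be told apart. LPS-G0 replicates 3 and 4 are LPS by their titles but control by one of their other labels, and were kept as LPS-G0.

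Ribosomal proteins join ribosomal RNA in the small and the large subunit, which read the mRNA and form the peptide bond. Their mRNAs are among the most abundant in any cell and are classic members of the TOP class, which starts with a C and a run of pyrimidines at the 5′ end and is translated under the control of mTOR. In blood, lymphocytes and young red cell precursors hold many ribosomes, whereas mature red cells have lost them. The comparisons below asked how far these mRNAs move together from animal to animal, and whether LPS or either beta-glucan changed them.

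The start sites of the genes are shown because the pyrimidine run at the 5′ end is the feature this gene class is known by. RefSeq promoters on GRCr8 were found for 76 of the 97 genes, 60 of them core genes. Each line gives 30 bases, from 15 before to 14 after the annotated first base, and capitals mark the longest run of C or T that reaches the stretch from 5 bases before to 9 after it, where that run has 6 or more bases.
Rpl34: CCCCTTCCTTTTCCTCTTCCggggacggtg
Rpl23: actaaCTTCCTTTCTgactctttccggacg
Rpl13: ctttgcggtgcccgaTCCTTTCCgctcggc
Rpl10: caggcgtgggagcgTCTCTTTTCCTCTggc
Rpl5: aCTCTCTTTCCCacgtcgcttgcgtcctgg
Rplp0: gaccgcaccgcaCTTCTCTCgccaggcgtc
Rps14: cccttccgTCTCTCTCTTTCCggtggagga
Rps27: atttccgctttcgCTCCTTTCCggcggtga
Rpl38: cttcgTTCTTTTTCCgttgttcggtgctcg
Rps6: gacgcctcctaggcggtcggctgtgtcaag
Rpl41: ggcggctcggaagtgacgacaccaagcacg
Rpl22l1: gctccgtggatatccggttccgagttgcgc
Rps27l: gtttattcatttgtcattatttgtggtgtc

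Rps14 lies on the plus strand, with its stretch at chr18:56498245-56498274, and Rpl23 on the minus strand, at chr10:83272170-83272199. A run of 6 or more pyrimidines stood at or close to the start site of 44 of the 60 core genes (73.3%), against 23% of all 27457 promoters. Some counted runs ended before the annotated first base, as in Rpl5 (bases -14 to -4) and in Rpl23 and Rpl38 (both -10 to -1). The median run was 10 bases in core genes and 4 bases in all promoters. The other 16 members with a promoter were paralogs, other copies and Rps19bp1. Of these, 4 had such a run (25%), near the share of all promoters, though 16 genes give an imprecise share. In the whole stretch from 250 bases before to 50 after the start, CCGGAAG, searched on both strands, was found in 31.7% of core promoters and 9.22% of all promoters. GCCATCTT was found in 8.33% and 3.44%, TATAAA in 10% and 14.3%, and CACGTG in 8.33% and 6.65%. These are matches of letters to annotated start sites, and the start used in blood was not read here.

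**Figure D1:**
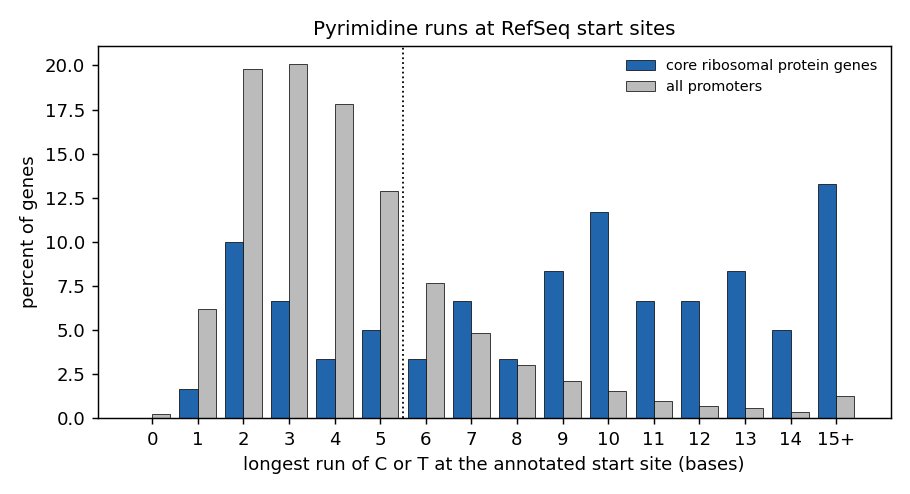
Percent of genes (y axis) by the longest run of C or T at the annotated start site in bases (x axis), for 60 core ribosomal protein genes (blue) and 27457 promoters (grey), with runs of 15 or more in the last bars and a dotted line below 6 bases. Runs of 15 or more made up 13.3% of core genes and 1.27% of all promoters.

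Nearly all members were well expressed. A probe was taken as well above background on an array where the scanner software marked at least 50% of its spots so in the Cy3 channel, and 91 of the 97 genes passed on all 24 arrays. None was saturated in Cy3. Since these 91 passed on every array, the filter took in none of them through 1 group alone. The 6 others were Rpl15, well above background on 7 arrays, Rpl31l1 on 2, Rpl10l on 1, and Rpl3l, Rpl39l and Rps19bp1 on 0 arrays. Rpl3l is the striated-muscle form of Rpl3, and Rpl10l is a testis form of Rpl10. These 6 genes were not tested. The accession of 79 genes was found in the current RefSeq table, and 3 of them now have another symbol there, among them the probe named Rpl37, which is listed as Rpl37l1.

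Values are log2 ratios of the rat's RNA (Cy3) over the reference (Cy5), averaged over the spots of a probe. The direction follows the sample labels and opposes the dyes given in the study's methods. With the sign turned, each ratio given as higher becomes lower with the same counts, whereas values of 1 channel and the background filter do not turn. The labels' direction was taken because a common reference should vary less, and Cy5 did: for the members detected in both channels, the within-group SD had a median of 0.137 in Cy5 and 0.264 in Cy3, and 89 of 91 members varied more in Cy3. The mean level of the core genes, scaled to each array's 75th percentile, spanned 1.103 on the log2 scale in Cy3 and 0.339 in Cy5. On all 24 arrays, Cy5 was nearer than Cy3 to the mean Cy5 of the other arrays. Signals in the same dye share that dye's effects on each probe, so this cannot tell which dye held the reference. Over all probes detected in both channels, 15 of 276 pairs of arrays correlated below -0.3, the lowest at -0.599 between C-G1 replicate 2 and C-G0 replicate 1.

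The core ribosomal protein mRNAs moved as a block from animal to animal. Over the 24 arrays, the median correlation between 2 of the 75 core genes detected on all arrays was 0.68 (2775 pairs, from -0.38 to 0.975), against 0.00304 between 2 of all 7074 probes detected on every array. Signed correlations of probes that run in opposite directions cancel in a median, so 0.00304 does not measure how far all probes moved together. A single component held 69.1% of the variance of the core genes and 40.8% of that of all these probes. Without the arrays that lay lowest and highest, C-G0 replicate 1 and C-G1 replicate 2, it held 48.6% of the core genes' variance. That last share was not computed for all probes. All these correlations share the same arrays and dyes, and are given as a description.

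**Figure D2:**
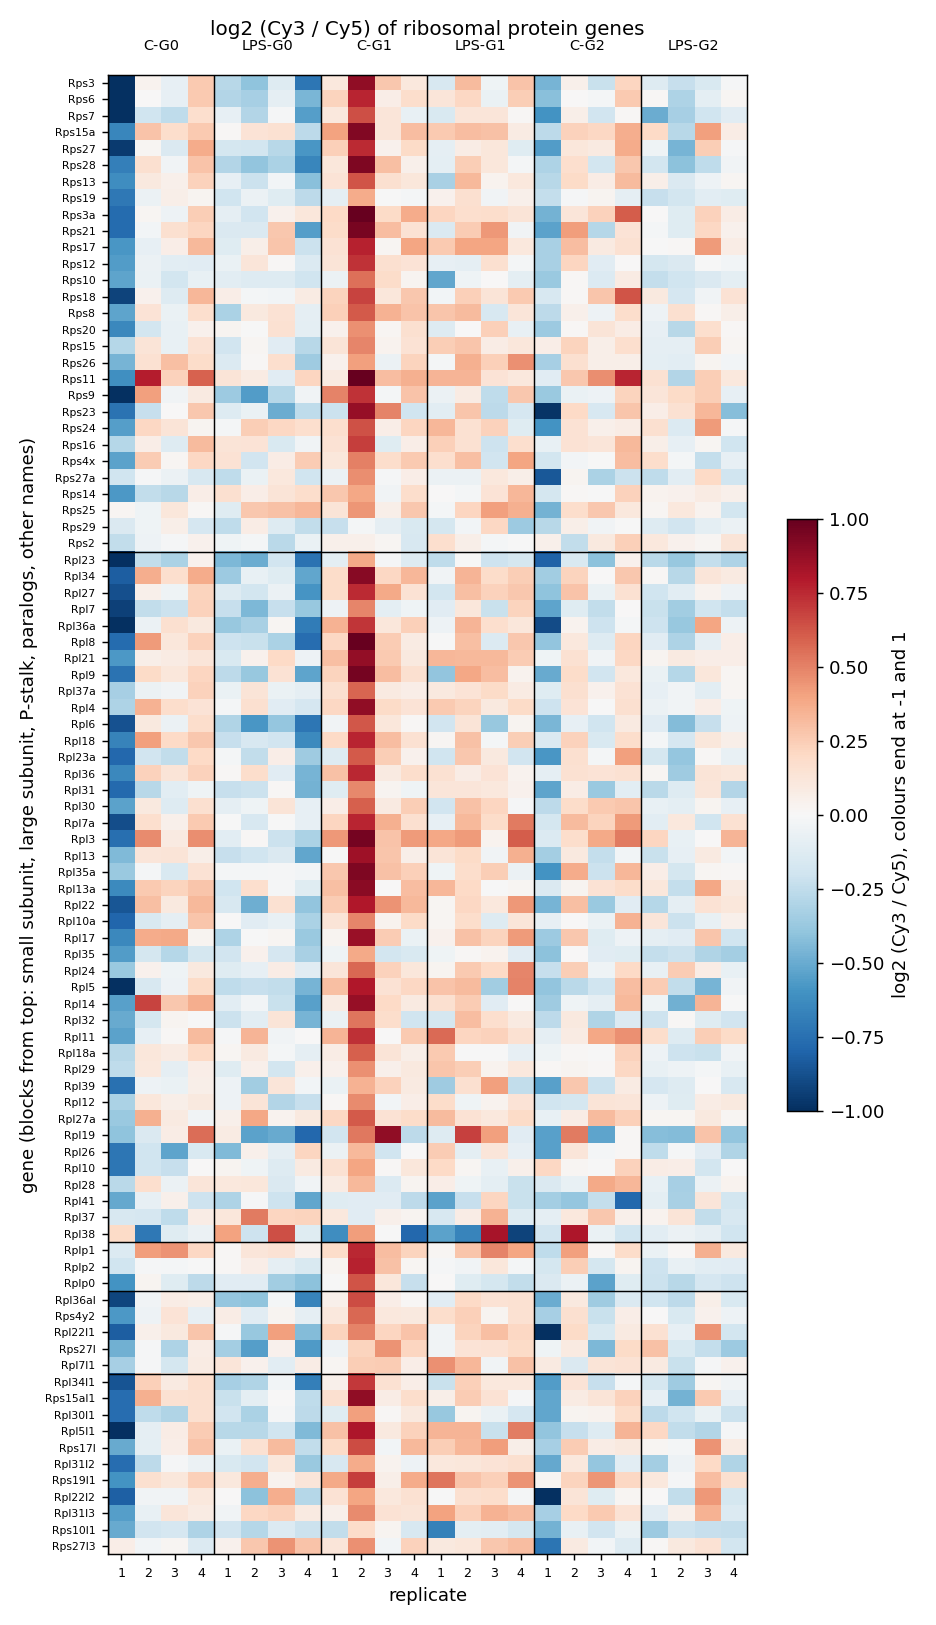
Log2 Cy3 over Cy5 (colour, from -1 in blue to 1 in red, with values past the ends in the end colours) of ribosomal protein genes detected on all arrays (rows, in blocks by role and within a block by correlation with the core genes) on the 24 arrays (columns, by group and replicate). C-G0 replicate 1 is blue and C-G1 replicate 2 is red across nearly all rows, whereas Rpl37 and Rpl38 at the foot of the large subunit block do not share the pattern.

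The mean log2 ratio of the 75 core genes gave each array 1 value. In C-G0 it was -0.61, 0.06, -0.01 and 0.15 for replicates 1 to 4, and in LPS-G0 it was -0.11, -0.07, -0.05 and -0.25. In C-G1 it was 0.10, 0.63, 0.14 and 0.10, and in LPS-G1 0.02, 0.17, 0.10 and 0.09. In C-G2 it was -0.32, 0.11, -0.03 and 0.16, and in LPS-G2 -0.06, -0.14, 0.04 and -0.04. C-G0 replicate 1 and C-G1 replicate 2 thus stood apart from the other 3 arrays of their groups, in opposite directions. The group means were -0.10 ± 0.34 in C-G0, -0.12 ± 0.09 in LPS-G0, 0.24 ± 0.26 in C-G1, 0.10 ± 0.06 in LPS-G1, -0.02 ± 0.21 in C-G2 and -0.05 ± 0.08 in LPS-G2 (SD, n = 4). The groups without LPS spread more widely than those with it on each diet.

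**Figure D3:**
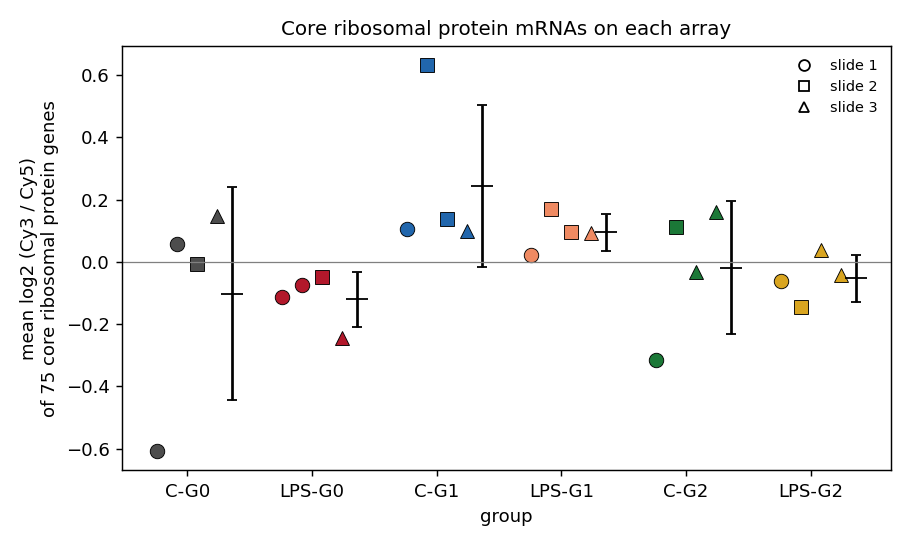
Mean log2 Cy3 over Cy5 of the 75 core ribosomal protein genes (y axis) on each array (points, replicates 1 to 4 from left to right, shape by slide) in the 6 groups (x axis), with the group mean and SD in black beside them. The 4 LPS-G1 arrays, from 0.02 to 0.17, lie above the 4 LPS-G0 arrays, from -0.25 to -0.05, and every other pair of groups compared overlaps.

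Members followed the block to very different degrees. The closest were Rpl23 (r = 0.96 with the mean of the other core genes, n = 24 arrays), Rps3 (0.95), Rpl34 (0.95) and Rps6 (0.95). Rps3 sits at the mRNA entry of the small subunit, and Rps6 is the classic substrate of the S6 kinases. Rps6 read -1.09, 0.00, -0.08 and 0.27 in C-G0, -0.29, -0.33, -0.09 and -0.46 in LPS-G0, and 0.12, 0.20, -0.06 and 0.25 in LPS-G1. In C-G1 Rps6 read 0.23, 0.76, 0.07 and 0.18, in C-G2 -0.42, 0.00, -0.02 and 0.26, and in LPS-G2 0.01, -0.31, -0.10 and 0.02. The lowest and the highest Rps6 arrays were the same pair that stood apart in the mean.

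Rpl38, Rpl37, Rpl41, Rps2 and Rps29 followed least, at r = -0.05, -0.04, 0.27, 0.30 and 0.31. Rpl38, known for its part in the translation of Hox mRNAs, varied most of the 91 genes, with an SD of 0.476 over the 24 arrays, and Rps2 least, with an SD of 0.126. Rpl38 read 0.20, -0.72, -0.12 and -0.06 in C-G0, 0.40, -0.21, 0.64 and -0.12 in LPS-G0, and -0.54, -0.66, 0.82 and -0.93 in LPS-G1. Within LPS-G1 alone it spread from -0.93 to 0.82, and the groups overlapped widely. Rpl41, the smallest ribosomal protein, was below 0 on all C-G1 arrays, at -0.12, -0.12, -0.11 and -0.26, including the array on which most others were highest. Members with and without a pyrimidine run differed little in this: the median r was 0.837 over the 44 core genes with a run of 6 or more and 0.877 over the 16 with a shorter one.

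Paralogs and other copies were mixed. Rpl36al (r = 0.93), Rps4y2 (0.89) and Rpl22l1 (0.78) followed the core genes, and Rps27l (0.60), Rpl7l1 (0.50) and Rps27l3 (0.35) less so. Rps27l is a p53-inducible relative of Rps27. A probe can read RNA from near-identical copies of these genes, so which copy a value comes from is uncertain. The array design (rn4) places the Rpl38 probe at chr3:158404926-158404985, whereas RefSeq (GRCr8) has the start of Rpl38 on chromosome 10, and it places the Rpl13 probe at chr8:5410033-5410092, whereas RefSeq has Rpl13 on chromosome 19. Of 47 genes with several probes detected on all arrays, 42 had a lowest correlation between probes above 0.5. The probes disagreed for Rpl37a (lowest r = -0.699), Rps16 (-0.14), Rpl22l1 (-0.081), Rps2 (0.251) and Rpl19 (0.416).

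The P-stalk recruits the elongation factors. Its genes followed the core mean with r = 0.756 for Rplp0, 0.793 for Rplp1 and 0.766 for Rplp2. Without the 2 arrays that stood apart, r was 0.362, 0.703 and 0.58. Such values were not particular to the P-stalk. Among large subunit genes, Rpl12 gave r = 0.753 and Rpl10 0.598, and 0.481 and -0.131 without those 2 arrays. Rplp0 read -0.60, 0.03, -0.12 and -0.26 in C-G0 and 0.00, 0.63, 0.12 and -0.23 in C-G1. Rplp1 read -0.14, 0.42, 0.45 and 0.20 in C-G0 and 0.18, 0.75, 0.31 and 0.22 in C-G1. Rplp2 read -0.20, -0.01, -0.02 and -0.01 in C-G0 and 0.02, 0.77, 0.29 and 0.02 in C-G1. In all 3 genes, C-G1 replicate 2 was the highest array of its group.

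LPS on the control diet went with no shift of these genes as a group, in values that turned on 1 array. In LPS-G0 against C-G0, the median log2 change of the 91 genes was 0.00, with 46 above 0. Over all 10313 probes tested the median was 0.03, with 53.5% above 0. No member passed limma's test at an adjusted p under 0.05, by which 0.0097% of all probes were called. The one-way analysis of variance with Tukey HSD, run on the same values, called 0 members in this comparison and in each of the 7 other comparisons of 2 groups. At an unadjusted p under 0.05, 3 members were higher and 0 lower, against 15.2% of all probes in either direction. The 3 higher members were Rps14, Rpl37 and Rps27l3, and Rpl37 and Rps27l3 were among the members that followed the block least. With array weights in the fit the balance turned, with 2 higher and 15 lower (28.5% of all probes in either direction). In that fit 23 of 91 were above 0, with a median of -0.093.

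Rps14, a protein of the small subunit platform lost in the 5q- syndrome, had the smallest p. It read -0.57, -0.25, -0.28 and 0.06 in C-G0 and 0.16, 0.06, 0.13 and 0.18 in LPS-G0. The groups did not overlap only by a gap below the printed digits, as LPS-G0 replicate 2 and C-G0 replicate 4 both read 0.063. The difference was 0.39 ± 0.14 (SE), with an adjusted p of 0.239 in limma and p = 0.0286 in the two-sided exact permutation test, the smallest that 4 against 4 arrays can give. The probe named Rpl37 read -0.16, -0.17, -0.25 and 0.07 in C-G0 and 0.12, 0.52, 0.22 and 0.22 in LPS-G0, a difference of 0.40 ± 0.15 with an adjusted p of 0.252 in limma. Without C-G0 replicate 1 the picture of the block changed: the median fell to -0.132 and 6 members passed at an adjusted p under 0.05, all lower in LPS-G0 (Rpl18, Rps28, Rpl8, Rpl34, Rpl6 and Rpl14), where 11% of all probes passed in either direction.

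With high-molecular-weight beta-glucan under LPS, most of these mRNAs had slightly higher values, and no single one passed the test. In LPS-G1 against LPS-G0, 82 of 91 genes had a value above 0, against 55.4% of all probes, and the median log2 change was 0.22 against 0.06. No member was called at an adjusted p under 0.05 by limma, although 8.93% of all probes were. At an unadjusted p under 0.05, 10 members were higher and 0 lower, and 26.9% of all probes passed in either direction, with 7.59% of all probes higher. The 4 arrays of LPS-G1 lay wholly above those of LPS-G0 for 18 of 91 members, against 7.3% of all probes. Among these were Rpl3, Rpl7, Rpl8, Rpl13, Rpl17, Rpl18, Rpl21, Rpl31, Rpl34, Rps2, Rps3a, Rps6, Rps15, Rps19, Rps27, Rps28 and Rpl31l3.

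Rpl13 had the smallest p in this comparison. It read -0.23, -0.20, -0.14 and -0.52 in LPS-G0 and 0.13, 0.19, -0.04 and 0.35 in LPS-G1, so that the groups did not overlap. The difference was 0.43 ± 0.15 (SE), with an adjusted p of 0.0892 in limma. Rpl3, which lies near the peptidyl transferase centre, read -0.11, 0.01, -0.21 and -0.32 in LPS-G0 and 0.38, 0.43, 0.03 and 0.60 in LPS-G1. The groups did not overlap, by a narrow margin, and the difference of 0.52 ± 0.23 had an adjusted p of 0.155 in limma.

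Rps3 read -0.28, -0.40, -0.13 and -0.72 in LPS-G0 and -0.16, 0.32, -0.04 and 0.29 in LPS-G1, with overlap and a difference of 0.48 ± 0.23 (adjusted p = 0.186 in limma). Rps6 differed by 0.42 ± 0.22 (adjusted p = 0.23 in limma). Rps27l, among the paralogs, read -0.34, -0.55, 0.04 and -0.56 in LPS-G0 and -0.04, 0.13, 0.15 and 0.19 in LPS-G1. Its difference was 0.46 ± 0.18 (adjusted p = 0.114 in limma), and LPS-G0 replicate 3 was the array that overlapped. Rpl22l1, a paralog of Rpl22 that is induced when Rpl22 is lost, differed by 0.28 ± 0.24 (adjusted p = 0.444 in limma), and Rpl22 itself read -0.16, -0.49, 0.16 and -0.39 in LPS-G0 and 0.02, 0.20, 0.10 and 0.43 in LPS-G1.

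By role, 39 of 42 large subunit genes, 26 of 30 small subunit genes, 3 of 3 P-stalk genes and 5 of 5 paralogs were above 0, with medians of 0.25, 0.19, 0.11 and 0.28. Rpl38 (-0.51) and Rpl37 (-0.23) were the lowest of the 91. The core mean differed by 0.215, and by 0.116, 0.181 and 0.338 within slides 1, 2 and 3. The calls depended on 1 array outside this comparison, since the fit shares the spread of the 4 groups: without C-G0 replicate 1, 12 members passed at an adjusted p under 0.05 (among them Rpl3, Rpl8, Rpl13, Rpl18, Rpl21, Rpl34, Rps3, Rps6, Rps28, Rpl36al and Rpl5l1), all higher, and 18.7% of all probes passed in either direction. Without LPS-G0 replicates 3 and 4, whose labels conflict, 1 member was higher at an unadjusted p under 0.05 (3.43% of all probes). That count, 10 with all arrays, was 31 without C-G0 replicate 1 (13.7% of all probes). Of the LPS-G0 arrays, dropping replicate 1 left 6 (5.56%) and dropping replicate 4 left 1 (3.33%), and of the LPS-G1 arrays, dropping replicate 2 left 2 (4.59%) and dropping replicate 4 left 5 (3.9%). Without LPS-G0 replicate 3, Rps27l was the 1 member called, where 10% of all probes were called in either direction.

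**Figure D4:**
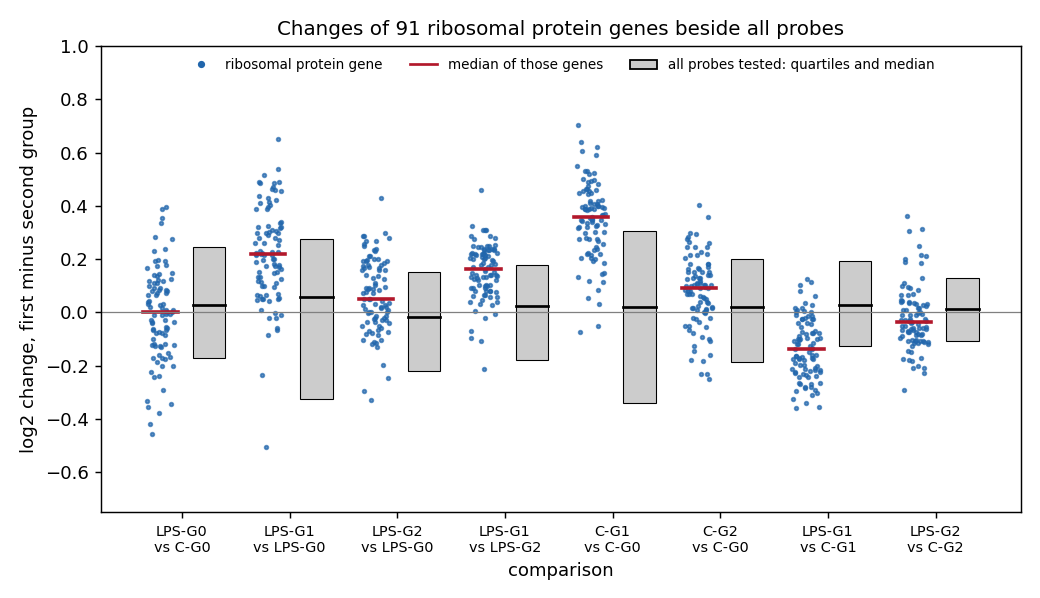
Log2 change, first minus second group (y axis), of the 91 ribosomal protein genes (blue points, median in red) in 8 comparisons (x axis), beside the quartiles (grey box) and median (black) of all probes tested. The medians of the members were 0.36 in C-G1 vs C-G0 and 0.22 in LPS-G1 vs LPS-G0, where all probes had medians of 0.02 and 0.06.

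Low-molecular-weight beta-glucan under LPS showed less. In LPS-G2 against LPS-G0 the median was 0.05 with 61 of 91 above 0, against -0.02 and 47.4% for all probes. Limma called 0 members and 0% of all probes at an adjusted p under 0.05. At an unadjusted p under 0.05, 1 member, Rpl37, was lower, against 8.23% of all probes. Rpl37 read 0.04, 0.13, -0.24 and -0.16 in LPS-G2. In the direct comparison of LPS-G1 with LPS-G2, 85 of 91 were above 0 with a median of 0.16, against 53.3% and 0.02 for all probes. No member and 0% of all probes were called at an adjusted p under 0.05 by limma, and 0 members and 6.68% of all probes had an unadjusted p under 0.05. Rpl7l1 had the smallest p, at an adjusted p of 0.679 in limma. Each pair of these 3 comparisons of LPS groups shares the arrays of LPS-G0, LPS-G1 or LPS-G2, so their values are not independent of each other.

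Without LPS, the G1 diet gave the largest median of the comparisons made, and the counts rested on 2 arrays. In C-G1 against C-G0, 89 of 91 genes were above 0 and the median was 0.36, against 51.4% and 0.02 over the 10708 probes of the fit of all 24 arrays. No member and 0.028% of all probes were called at an adjusted p under 0.05 by limma. At an unadjusted p under 0.05, 36 members were higher and 0 lower, where 27.9% of all probes passed in either direction and 12.1% were higher. Arrays did not overlap, in the higher direction, for 8 members, against 3.07% of all probes. Without C-G0 replicate 1, 4 members were higher at an unadjusted p under 0.05, against 2.48% of all probes, and without both C-G0 replicate 1 and C-G1 replicate 2 it was 1 member, against 1.93%. The count was 4 without C-G1 replicate 2 (5.16% of all probes) and 52 without C-G0 replicate 4 (18.8%). In the latter fit 6 members (Rps14, Rpl10, Rps7, Rpl5, Rpl10a and Rps18) were called at an adjusted p under 0.05, and 9.04% of all probes. The difference of the core means was 0.345, and 0.380, 0.390 and -0.049 within slides 1, 2 and 3.

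Rps14 again had the smallest p, reading 0.27, 0.38, -0.04 and 0.18 in C-G1, a difference of 0.46 ± 0.14 from C-G0 with an adjusted p of 0.106 in limma. Rpl10, which closes the late steps of large subunit assembly, read -0.73, -0.20, -0.23 and 0.00 in C-G0 and 0.15, 0.39, 0.01 and 0.11 in C-G1. The groups did not overlap, by a narrow margin, and the difference was 0.46 ± 0.14 (adjusted p = 0.108 in limma). Rpl5, which with Rpl11 carries the 5S RNA and binds Mdm2, had the largest difference, 0.70 ± 0.26 (adjusted p = 0.133 in limma). It read -1.34, -0.16, -0.05 and 0.19 in C-G0 and 0.30, 0.80, 0.14 and 0.21 in C-G1, with replicate 1 of C-G0 far below the other 3. Rpl11 read -0.53, -0.08, 0.01 and 0.32 in C-G0 and 0.34, 0.73, 0.00 and 0.26 in C-G1. Rps6 differed by 0.53 ± 0.22 (adjusted p = 0.143 in limma).

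The G2 diet without LPS gave a median of 0.09, with 70 of 91 above 0, against 0.02 and 52.7% for all probes. In C-G2 against C-G0, 0 members and 0.028% of all probes were called by limma at an adjusted p under 0.05, and 1 member, Rpl10, was higher at an unadjusted p under 0.05, against 13.3% of all probes. Rpl10 read 0.21, 0.02, -0.01 and 0.23 in C-G2. Without C-G0 replicate 1 the median of this comparison was -0.092. All comparisons with C-G0 share that array.

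In rats fed beta-glucan, no member passed the test for LPS. In LPS-G1 against C-G1, 78 of 91 were below 0 and 13 above, with a median of -0.14. Of all probes, 54.3% were above 0, with a median of 0.03. Limma called 0 members and 0.00934% of all probes at an adjusted p under 0.05. At an unadjusted p under 0.05, 1 member, Rps10, was lower, against 2.81% of all probes. In LPS-G2 against C-G2 the median was -0.04 with 33 of 91 above 0, against 0.01 and 52.8% for all probes. Limma called 0 members and 0% of all probes, and 0 members and 1.09% had an unadjusted p under 0.05. The effect of LPS was also compared between diets by an interaction term. For the G1 diet against the control diet, no member was called by limma (0% of all probes), and Rps12 and Rps14 were lower at an unadjusted p under 0.05, against 3.01% of all probes. For the G2 diet, no member was called by limma (0% of all probes), and Rpl37 was lower at an unadjusted p under 0.05, against 5.57% of all probes.

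Some core ribosomal proteins that carry other names were read beside the members. The mean of 4 such genes followed the core mean with r = 0.724 over all arrays, but with a Spearman's rho of only 0.381. Without the arrays farthest from the median of this list, r was 0.252, so the relation rested largely on those arrays. Within single slides, r lay from 0.304 to 0.863. Rpsa, the laminin receptor protein of the small subunit, changed by 0.33 ± 0.18 in LPS-G1 against LPS-G0, Gnb2l1, the RACK1 scaffold, by 0.09 ± 0.19, and Fau, made as a fusion with a ubiquitin-like protein, by -0.14 ± 0.15. In C-G1 against C-G0 they changed by 0.07 ± 0.18 (Rpsa), 0.35 ± 0.17 (Gnb2l1) and 0.09 ± 0.14 (Fau). None was called by limma. Rps27a, made as a fusion with ubiquitin, read -0.20, -0.01, -0.06 and -0.16 in C-G0 and -0.06, 0.47, -0.01 and 0.07 in C-G1.

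Elongation, other TOP and ribosome biogenesis genes moved with the ribosomal proteins over the arrays. The mean of 17 elongation and other TOP genes followed the core mean with r = 0.923 (Spearman's rho 0.837, n = 24 arrays), and that of 17 ribosome biogenesis genes with r = 0.925 (rho 0.862). Without the 2 arrays farthest from the median of each list, r was 0.847 and 0.842. The mean of 41 mitochondrial ribosomal proteins, which serve a separate ribosome, followed with r = 0.796, and 0.641 without its 2 farthest arrays. That of 9 genes of mTOR and S6 kinase signalling gave r = 0.39, and 0.149 without its 2 farthest arrays. In LPS-G1 against LPS-G0, 22 of 25 biogenesis genes tested and 14 of 19 TOP genes were above 0, and none was called. The largest changes in these lists were in Mrto4 (0.70 ± 0.27) and the nucleolar protein Ncl (0.66 ± 0.23, adjusted p = 0.0833 in limma), and in Hnrnpa1 (0.655 ± 0.235) and Eef1b2 (0.55 ± 0.28). Of the mitochondrial ribosomal proteins, 41 of 52 were above 0, whereas the 2 called by limma, Mrpl40 (-0.65 ± 0.14, adjusted p = 0.0289) and Mrpl42 (-0.71 ± 0.19, adjusted p = 0.0344), were lower. Among signalling genes, Rps6kb1 changed by 0.57 ± 0.26 and Rps6ka1 by 0.37 ± 0.23.

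Markers of some blood cell types moved with the core mean, and those of others did not. The mean of 11 erythroid marker genes ran opposite to it, with r = -0.838 over 24 arrays (rho -0.881, -0.74 without the 2 farthest arrays, and -0.744, -0.956 and -0.661 within slides 1, 2 and 3). The mean of 12 T cell markers ran with it, with r = 0.79 (rho 0.59, 0.658 without the 2 farthest arrays). Platelet markers gave r = -0.743 and the 2 cell division genes detected on all arrays -0.761, and -0.624 and -0.592 without the 2 farthest arrays. The relation of the other lists was weak or rested on 2 arrays, as r fell from 0.558 to 0.296 for B cells and from 0.509 to 0.0792 for monocytes without them, turned from 0.186 to -0.369 for cytotoxic T and NK cells, and was -0.07 and -0.163 for neutrophils. All these lists share the arrays and the reference channel with the core genes, and their part in the results was not tested.

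In the comparison of LPS-G1 with LPS-G0, the erythroid mean lay from 0.07 to 0.17 in LPS-G0 and from -0.47 to -0.01 in LPS-G1, so the groups were apart there too, in the opposite direction to the ribosomal proteins. Of 13 erythroid genes tested, 10 were below 0 and 2 were called lower by limma: Klf1 (-0.81 ± 0.21, adjusted p = 0.0289), the transcription factor of the red cell programme, and Epb42 (-0.93 ± 0.27, adjusted p = 0.0408), a membrane protein of red cells. The embryonic globin Hbe1 was the only one of 14 on the array that was not well above background on any array. Summed over the 11 genes, Cy3 signal relative to the array's 75th percentile was 368 to 515 in LPS-G0 and 365 to 463 in LPS-G1. All 8 cytotoxic T and NK cell genes tested were below 0, with Klrk1 called (-0.48 ± 0.14, adjusted p = 0.0443 in limma), while their means overlapped, from -0.03 to 0.62 in LPS-G0 and from -0.15 to 0.32 in LPS-G1. All 5 cell division genes tested were below 0 as well, with Tpx2 called (-1.68 ± 0.47, adjusted p = 0.0374 in limma). T cell marker means overlapped, from -0.45 to 0.06 and from -0.22 to 0.23. The T cell sum was 5.13 to 6.99 in LPS-G0 and 6.55 to 8.95 in LPS-G1.

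C-G1 replicate 2, the array highest in ribosomal proteins, was also lowest in erythroid markers, at -1.31, and highest in T cell markers, at 0.62. C-G0 replicate 1, lowest in ribosomal proteins, was highest in erythroid markers, at 0.30. In C-G1 against C-G0 the erythroid means did not overlap, from -1.31 to -0.25 in C-G1 and from -0.20 to 0.30 in C-G0, with 11 of 13 genes below 0 and none called.

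**Figure D5:**
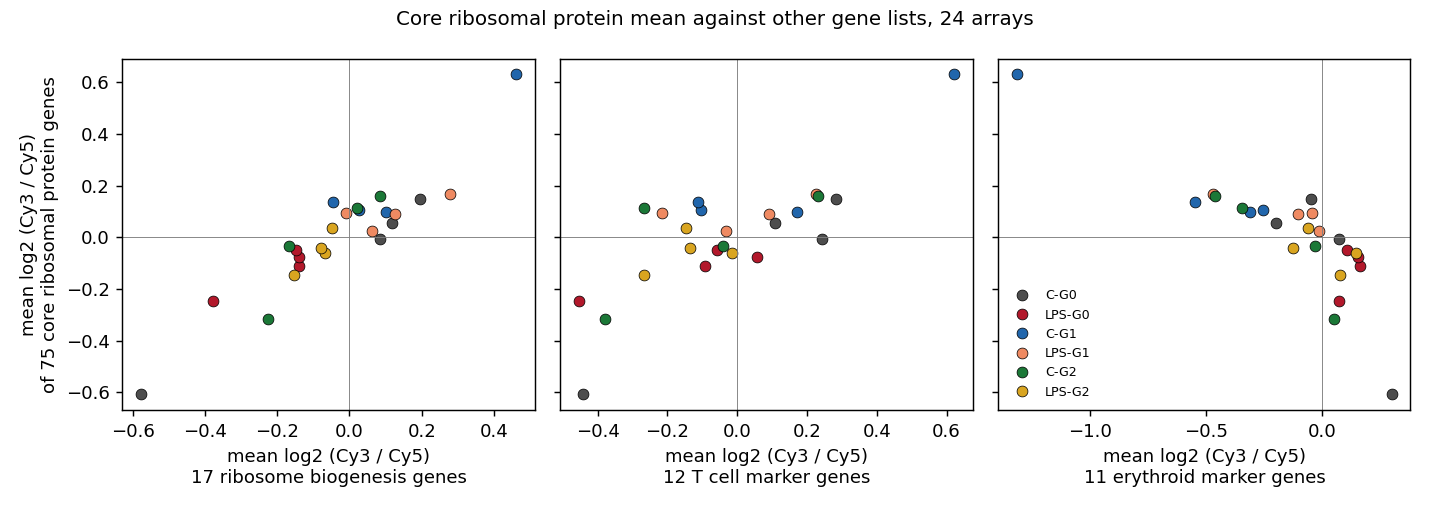
Mean log2 Cy3 over Cy5 of the 75 core ribosomal protein genes (y axis) against the mean of 17 ribosome biogenesis genes, 12 T cell marker genes and 11 erythroid marker genes (x axes, left to right) on 24 arrays coloured by group. The points rise with the first list (r = 0.925) and the second (r = 0.79) and fall with the third (r = -0.838), and C-G0 replicate 1 and C-G1 replicate 2 lie at the ends.

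Other genes of the panel differed in whether they separated LPS-G1 from LPS-G0. Rps19, the protein most often mutated in Diamond-Blackfan anaemia, read -0.20, -0.06, -0.12 and -0.27 in LPS-G0, 0.04, 0.16, -0.03 and 0.05 in LPS-G1 and -0.23, -0.18, -0.10 and -0.12 in LPS-G2. LPS-G1 lay above both other groups for Rps19. Rps26 read -0.14, 0.01, 0.17 and -0.35 in LPS-G0 and -0.02, 0.35, 0.24 and 0.46 in LPS-G1, with overlap. Rps27 read -0.17, -0.19, -0.28 and -0.58 in LPS-G0 and -0.09, 0.07, 0.12 and -0.12 in LPS-G1, without overlap. Rps25, needed for initiation at some viral RNAs, read -0.12, 0.27, 0.29 and 0.33 in LPS-G0 and -0.02, 0.22, 0.41 and 0.35 in LPS-G1, and did not separate them. Rps4x read 0.15, -0.19, 0.07 and 0.25 in LPS-G0 and 0.17, 0.30, -0.19 and 0.40 in LPS-G1, and Rpl13a read -0.20, 0.17, -0.01 and -0.12 in LPS-G0 and 0.33, 0.20, -0.01 and 0.02 in LPS-G1, both with overlap.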

How the data were processed

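The 24 two-colour Agilent rat arrays were scanned and extracted by the authors with Feature Extraction (10.10.1.1 in the file headers), which subtracts background and balances both dyes with an array-wise Lowess curve. The deposited log10 ratio is processed Cy5 over Cy3, and the deposited processed signals are intensity values. The deposited value table holds the same ratios (1511424 of 1511424 identical). Here the ratio was turned to log2 Cy3 over Cy5, outlier spots (679 to 1133 per array) and controls were left out, and spots of a probe were averaged. A probe was tested if any group had it well above Cy3 background on its 4 arrays, using limma 3.58.1 in R 4.3.3, two-sided, with Benjamini-Hochberg adjustment over all probes tested. C-G0 and the LPS groups entered 1 fit of 16 arrays, and comparisons with C-G1 or C-G2 a fit of all 24. The script was tested on simulated data. By arrays above background, Cy3 held 7786 to 15385 probes and Cy5 14400 to 22449, and the number of arrays limits the precision. Replicates are samples the labels separate. Slides, filters, weights, normalization, tests and left-out arrays were varied.

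Members, lists and tests were chosen with earlier results of these data known. Genes named with changes came from a fixed panel or had the smallest p in a comparison, those of other lists had the 2 largest changes of a list, and genes named for how closely they followed the others or as parts of a count were chosen after their values were seen. Results for some genes are not reported here.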

Additional observations from a re-analysis of the deposited data

Results flagged for a closer look

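In groups of 4 arrays, an array was singled out where its gap to the nearest other array exceeded 0.829 of the group's range, which chance gives in about 1 in 20 groups. Of 132 groups tested, 9 had such an array.

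The mean of the 75 core genes was 0.631 on C-G1 replicate 2, against 0.099 to 0.136 on the other 3 arrays (ratio 0.931). C-G0 replicate 1 was singled out for Rplp2 (-0.197 against -0.016 to -0.005, ratio 0.939), Rpl13a (-0.633 against 0.219 to 0.28, ratio 0.933) and Rps19 (-0.714 against -0.058 to 0.061, ratio 0.846). Among arrays with LPS, Rpl5 was low on LPS-G0 replicate 4 (-0.463 against -0.254 to -0.231, ratio 0.902) and Rps25 low on LPS-G0 replicate 1 (-0.123 against 0.267 to 0.333, ratio 0.856). Rpl11 was high on LPS-G0 replicate 2 (0.337 against -0.032 to 0.005, ratio 0.898), and Rplp2 on LPS-G1 replicate 3 (0.11 against -0.032 to -0.011, ratio 0.852). Rpl41 was low on C-G1 replicate 4 (-0.264 against -0.124 to -0.113, ratio 0.929).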

How the results depend on the processing

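Of 456 counts, 423 stayed within 1.5 times and 33 moved, and of 659 gene values 18 passed the threshold under an alternative. Leaving out 1 array at a time, the difference in the core mean crossed 0 for LPS-G0 minus C-G0 (-0.187 to 0.065), C-G2 minus C-G0 (-0.085 to 0.182) and LPS-G2 minus C-G2 (-0.133 to 0.026), and kept its direction in the other 5 comparisons. Array weights called 2 members in LPS-G0 vs C-G0, both lower (11.1% of all probes), and 21 in LPS-G1 vs LPS-G0, all higher (27.6%). With array weights, LPS-G1 vs LPS-G0 had 36 members higher at an unadjusted p under 0.05 (17.7% of all probes), and C-G1 vs C-G0 had 4 (5.45%). For the same 2 comparisons the one-way test of the methods, followed by Tukey HSD, gave 1 (1.45%) and 3 (1.04%). Normexp and loess gave 20 for LPS-G1 vs LPS-G0 (9.3%), leaving out the 2 arrays with conflicting labels gave 1 (3.43%), and fitting only the 8 arrays compared gave 6 for C-G1 vs C-G0 (5.9%). An unadjusted p under 0.05 as the call rule gave 3 in LPS-G0 vs C-G0, 10 in LPS-G1 vs LPS-G0, 36 in C-G1 vs C-G0, 1 each in LPS-G2 vs LPS-G0, C-G2 vs C-G0 and LPS-G1 vs C-G1, and 2 and 1 in the interactions of the G1 and G2 diets. Leaving out C-G0 replicate 1 and C-G1 replicate 2 together, chosen after seeing the data, called 6 in LPS-G0 vs C-G0 (11% of all probes) and 12 in LPS-G1 vs LPS-G0 (18.7%), and gave 31 (13.7%) and 1 (1.93%) members higher at an unadjusted p in LPS-G1 vs LPS-G0 and C-G1 vs C-G0. Leaving out 1 array at a time gave 0 to 6 calls in LPS-G0 vs C-G0, 0 to 12 in LPS-G1 vs LPS-G0, 0 to 6 in C-G1 vs C-G0 and 0 in the other comparisons, with 1 to 31 and 4 to 52 members higher at an unadjusted p in LPS-G1 vs LPS-G0 and C-G1 vs C-G0. The cause of these moves was not tested. Tukey's test was not run for the interactions.

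The replicate block called 2 members in C-G1 vs C-G0, Rps12 and Rps14, where it called 5.6% of all probes, and changed no other call. Same-numbered arrays did not deviate together throughout (0 to 3 of 4 pairs above 0.1), so the numbers were not taken as pairs.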
